A study of Bos taurus with 6 samples.

Results

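The genes of cholesterol synthesis, sterol uptake and esterification, and of the SREBP system that controls them, were examined in primary bovine hepatocytes exposed to palmitic acid (PA), a saturated fatty acid that loads liver cells with lipid. The 30 members were taken by gene name from the deposited gene count table, and each matched 1 of its 36577 loci. They comprise 19 synthesis enzymes, 5 genes of SREBP control, 4 of sterol uptake and transfer, and 2 of esterification. The list does not hold every enzyme or receptor of the pathway. Of the 30 members, 29 passed the filter on low counts, among 15576 genes tested. SOAT2, with 2 to 6 counts per library, did not pass.

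The hepatocytes were wild type and came from fasted healthy female calves aged 1 day. In 3 libraries the cells received 400 µmol/L PA with 200 µmol/L indole-3-acetic acid (PA + 3-IAA), an indole product of tryptophan breakdown, and in 3 they received the same dose of PA with the solvent DMSO (PA + DMSO). All 6 cultures thus carried PA, and no PA-free cells were among these samples. The growth medium held 10% fetal bovine serum, which itself carries lipoproteins and sterols, and the labels do not give how long PA was applied. Nor do they tie a replicate to a calf or a culture, and p-values reflect only the spread among these libraries. Polyadenylated RNA was sequenced to total counts of 21159388 to 22562450 in PA + 3-IAA and 16580723 to 20765358 in PA + DMSO. In bulk RNA, fewer cells of a type and less RNA per cell cannot be told apart.

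As background, cells make cholesterol from acetyl-CoA, first through mevalonate to farnesyl diphosphate and squalene, then through ring closure to lanosterol and a chain of demethylations, reductions and double bond shifts in the endoplasmic reticulum (ER). SREBP transcription factors are held in the ER membrane by the sterol-sensing escort SCAP and the retention proteins INSIG1 and INSIG2. When ER sterol is low, SCAP carries SREBP to the Golgi, where it is cut and released to the nucleus, and SREBP-2 then raises the synthesis enzymes and INSIG1 together. The liver is a main site of this synthesis and of the uptake, esterification and export of sterol.

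PA + DMSO replicate 3 differed from replicates 1 and 2, and counts of calls are therefore given with and without it, as are the sterol genes whose call changed. Without it only replicates 1 and 2 remain in PA + DMSO. Leaving out a library because it stands apart in these data narrows the spread of its group. Smaller SEs and adjusted p-values in that fit are therefore no added support. Replicate 3 differed widely in ER stress genes. HSPA5, the main ER chaperone, measured 1125, 1157 and 1168 CPM (reads scaled to the size of each library) in PA + 3-IAA replicates 1 to 3, against 26743, 26685 and 16126 CPM in PA + DMSO replicates 1 to 3. Replicate 3 was the lowest of the PA + DMSO libraries for all 10 genes of the ER stress list, whose summed TPM (the deposited abundance per transcript length) was 2133 to 2139 in PA + 3-IAA and 17751 to 30278 in PA + DMSO. All 10 genes of that list were lower with 3-IAA in the test described next. The part of ER stress in the sterol results was not tested. Of the hepatocyte markers, 11 of 12 were higher and 0 lower (at an unadjusted p under 0.05 also 0 were lower, and 0 by DESeq2), with summed TPM of 21730 to 23920 in PA + 3-IAA and 15378 to 17236 in PA + DMSO. No matched marker of any of the other liver cell types was at 0 in all libraries. Summed TPM was 67.2 to 76.6 in PA + 3-IAA and 37.2 to 57.7 in PA + DMSO for 11 endothelial markers (5 higher, 2 lower, or 7 and 2 without PA + DMSO replicate 3), 112 to 122 in PA + 3-IAA and 89.4 to 94.1 in PA + DMSO for 9 matched macrophage markers (4 higher), 2871 to 2956 in PA + 3-IAA and 1667 to 2312 in PA + DMSO for 10 stellate and fibroblast markers (4 higher, 2 lower), and 1497 to 1551 in PA + 3-IAA and 776 to 960.3 in PA + DMSO for 7 bile duct markers (3 higher, 1 lower). The counts of the other marker lists and of the ER stress list were the same without that library. Among all genes tested 51.2% were called, and 60.5% without that library. The share called was 100% of the ER stress list and 91.7% of the hepatocyte markers. It was 63.6% of the endothelial markers (81.8% without that library) and 44.4% of the macrophage markers. For the tested stellate and fibroblast markers it was 66.7%, and for the bile duct markers 57.1%. The part of these cell types in the sterol results was not tested.

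With 3-IAA, 13 of the 29 tested sterol genes were lower and 4 were higher, by edgeR's quasi-likelihood test at a Benjamini-Hochberg adjusted p under 0.05 over all genes tested. Among all genes 25.8% were lower and 25.4% higher, 51.2% in all, and the sterol genes called made up 58.6% of those tested. The 13 that fell were the enzymes MVK, PMVK, MVD, IDI1, CYP51A1, MSMO1, NSDHL, SC5D and DHCR7, the SREBP regulators SCAP, INSIG1 and INSIG2, and the sterol carrier STARD4. The 4 that rose were the sterol reductase TM7SF2, the transcription factor SREBF1, the lipoprotein receptor SCARB1 and the sterol transporter NPC1L1. Without PA + DMSO replicate 3, 14 were lower and 11 higher (29.7% and 30.9% of all genes, 60.5% in all), which was 86.2% of the sterol genes tested. With scaling by library total, 13 were lower and 7 higher. The median log2 fold change of the 29 was -0.026, against 0.0029 over all genes tested, and -0.13 against 0.0066 without that library.

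**Figure D1:**
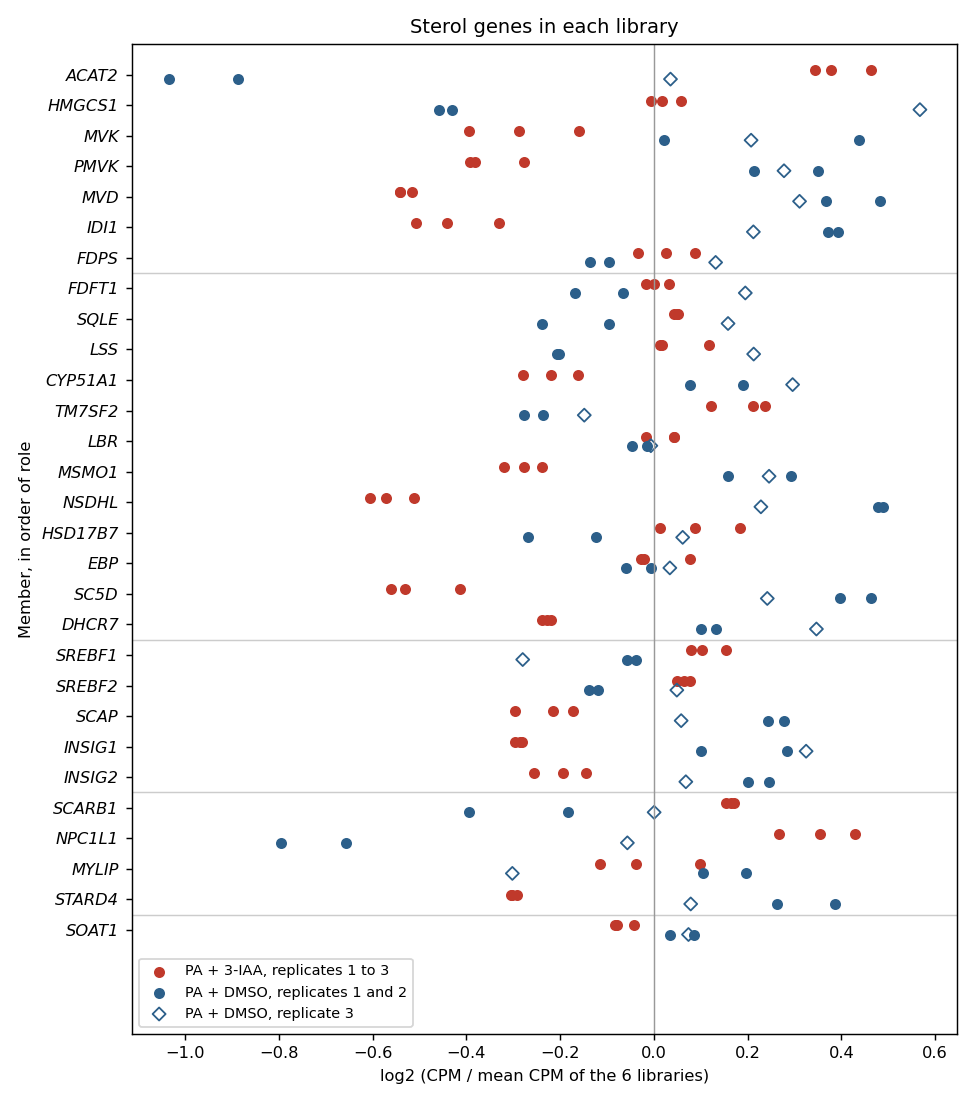
Level of each tested sterol gene in each library, as log2 of its CPM over its mean CPM in the 6 libraries, with genes in order of role and grey lines between roles. Filled red points are PA + 3-IAA, filled blue points PA + DMSO replicates 1 and 2, and open diamonds PA + DMSO replicate 3. The PA + 3-IAA points of 14 genes lie wholly below the PA + DMSO points and those of 6 lie wholly above, and the open diamond is the highest point for 8 genes.

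In 20 of the 29 genes the CPM ranges of the groups were separate, 14 with PA + 3-IAA below and 6 above, which was 69.0%. Over all tested genes the shares were 31% below and 31.5% above, 62.5% in all. In TPM, the deposited measure, PMVK and SOAT1 overlapped between the groups. LBR, HSD17B7 and EBP, which overlapped in CPM, were separate in TPM with PA + 3-IAA above. Replicates of PA + 3-IAA were closer to each other than those of PA + DMSO, with a median coefficient of variation over the 29 genes of 3.83% in PA + 3-IAA and 9.02% in PA + DMSO, against 5.93% in PA + 3-IAA and 10.1% in PA + DMSO over all genes tested.

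The pathway opens with ACAT2, the cytosolic thiolase that joins acetyl-CoA units, and HMGCS1, which adds a further acetyl group to form HMG-CoA. ACAT2 measured 192, 187 and 204 CPM in PA + 3-IAA replicates 1 to 3 and 72.2, 79.9 and 151 CPM in PA + DMSO replicates 1 to 3. Every PA + 3-IAA library was above every PA + DMSO library, and PA + DMSO replicate 3 lay between them. The log2 fold change of 0.94 (SE 0.31, 95% interval 0.14 to 1.74) did not pass the threshold (edgeR adjusted p = 0.0557), while DESeq2 gave an adjusted p of 0.0206 and limma voom 0.0312. Without PA + DMSO replicate 3 ACAT2 rose 2.56-fold (log2 1.36, SE 0.05, edgeR adjusted p = 5.72e-19). HMGCS1 measured 351, 345 and 361 CPM in PA + 3-IAA, against 257, 252 and 514 CPM in PA + DMSO. Here the groups overlapped, since PA + DMSO replicate 3 was the highest of the 6 libraries and the other PA + DMSO libraries the lowest. The log2 fold change of HMGCS1 was 0.05 with a 95% interval of -0.76 to 0.85 (edgeR adjusted p = 0.919), so a difference of either sign could not be resolved. With only PA + DMSO replicates 1 and 2 left as controls, HMGCS1 was 1.38-fold higher (log2 0.47, SE 0.04, edgeR adjusted p = 1.64e-10). The smaller SE there follows from leaving out the library that held most of the spread.

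The enzymes that turn mevalonate into isopentenyl units and isomerise them all fell. They were the 4 called of the 7 mevalonate and isoprenoid enzymes, or 57.1%, against 51.2% of all genes tested. MVK and PMVK, the kinases that add phosphates to mevalonate, were scarce transcripts, at 5.46 ± 0.445 CPM in PA + 3-IAA and 7.77 ± 1.13 CPM in PA + DMSO for MVK (SD, n = 3 each). MVK fell 1.42-fold (log2 -0.50, SE 0.14, edgeR adjusted p = 0.0131) and lost its call without PA + 3-IAA replicate 3 (edgeR adjusted p = 0.0564) or without PA + DMSO replicate 2 (0.0531). PMVK measured 10.7, 9.96 and 9.88 CPM in PA + 3-IAA and 16.5, 15.04 and 15.7 CPM in PA + DMSO, with no overlap, and fell 1.55-fold (log2 -0.63, SE 0.09, edgeR adjusted p = 0.000405). In TPM, however, PMVK stood at 5.29, 4.95 and 4.98 in PA + 3-IAA and at 7.15, 4.33 and 4.32 in PA + DMSO. Its groups overlapped on that scale, which weights a read by the length of the transcript assigned to it, and the TPM per CPM of PMVK varied by 25.7% (coefficient of variation over the 6 libraries), against 1.95% to 9.21% for the other 29 members.

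MVD, the decarboxylase that yields isopentenyl diphosphate, measured 22.0, 22.0 and 22.4 CPM in PA + 3-IAA and 44.7, 41.3 and 39.7 CPM in PA + DMSO. The PA + 3-IAA libraries were all far below the lowest PA + DMSO library. MVD fell 1.9-fold (log2 -0.92, SE 0.07, edgeR adjusted p = 6.4e-05). IDI1, the isomerase that makes the primer for chain growth, measured 54.7, 59.1 and 52.2 CPM in PA + 3-IAA and 97.5, 96.1 and 86.0 CPM in PA + DMSO. It fell 1.68-fold (log2 -0.75, SE 0.07, edgeR adjusted p = 7.8e-05), again with no overlap. FDPS, which joins isoprene units into farnesyl diphosphate, did not pass the test, at 58.2 ± 2.44 CPM in PA + 3-IAA and 55.9 ± 5.74 CPM in PA + DMSO (SD, n = 3 each). Its 95% interval on the log2 scale ran from -0.12 to 0.23.

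The enzymes that commit farnesyl units to sterol stood nearly level between the groups when all libraries were used. FDFT1 makes squalene, SQLE oxidises it and LSS closes it into lanosterol. FDFT1 measured 88.3, 90.3 and 87.3 CPM in PA + 3-IAA, inside the spread of PA + DMSO at 84.4, 78.6 and 101 CPM. SQLE measured 150.3, 150.9 and 151.2 CPM in PA + 3-IAA and 124, 137 and 163 CPM in PA + DMSO. LSS measured 29.6, 31.8 and 29.5 CPM in PA + 3-IAA and 25.4, 25.4 and 33.9 CPM in PA + DMSO. In each of the 3 genes PA + DMSO replicates 1 and 2 lay below all PA + 3-IAA libraries and replicate 3 above them. The log2 fold changes were 0.0086, 0.097 and 0.10 for FDFT1, SQLE and LSS, with edgeR adjusted p of 0.944, 0.402 and 0.487, and their 95% intervals reached from -0.19 to 0.20, -0.11 to 0.30 and -0.15 to 0.35. Without PA + DMSO replicate 3 all 3 rose, by 1.09-fold, 1.16-fold and 1.19-fold (edgeR adjusted p = 0.0400, 0.000294 and 0.00235), and so did FDPS by 1.11-fold (adjusted p = 0.0257).

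Of the 12 squalene and sterol enzymes 5 fell and 1 rose, which was 50% of them, close to the 51.2% of all genes tested, and the 6 called all act on lanosterol or later. CYP51A1, the demethylase that opens this stretch, measured 62.4, 67.7 and 65.0 CPM in PA + 3-IAA and 79.9, 86.4 and 93.0 CPM in PA + DMSO. It fell 1.33-fold (log2 -0.41, SE 0.07, edgeR adjusted p = 0.00103). MSMO1 and NSDHL act together in removing the C4 methyl groups. MSMO1 measured 198, 203 and 192 CPM in PA + 3-IAA and 267, 293 and 284 CPM in PA + DMSO, and fell 1.43-fold (log2 -0.51, SE 0.06, edgeR adjusted p = 0.000167). NSDHL measured 51.6, 49.5 and 48.3 CPM in PA + 3-IAA and 103, 102 and 86.1 CPM in PA + DMSO. NSDHL fell 1.95-fold, the widest fall among the members (log2 -0.96, SE 0.08, edgeR adjusted p = 6.4e-05). HSD17B7, the ketoreductase of the same demethylation, did not follow: it averaged 62.4 ± 3.71 CPM in PA + 3-IAA and 54.3 ± 6.25 CPM in PA + DMSO (SD, n = 3 each; log2 0.20, SE 0.09, edgeR adjusted p = 0.0794), and without PA + DMSO replicate 3 it rose 1.23-fold (adjusted p = 0.000113).

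TM7SF2 and LBR encode a pair of enzymes for the same reduction of the C14 double bond, LBR also being a protein of the inner nuclear membrane. TM7SF2 measured 22.4, 20.7 and 22.0 CPM in PA + 3-IAA and 15.7, 16.2 and 17.2 CPM in PA + DMSO, with no overlap. It rose 1.33-fold (log2 0.41, SE 0.08, edgeR adjusted p = 0.00194). TM7SF2 was the only synthesis enzyme called higher by edgeR's test as described above, with all 6 libraries. ACAT2 missed the threshold there but passed by DESeq2, by limma voom and with scaling by library total. ACAT2 also passed with a filter of at least 1 CPM in each library and with the replicate number as a block. HSD17B7 passed as higher with scaling by library total (log2 0.27, edgeR adjusted p = 0.0268). LBR averaged 39.2 ± 0.93 CPM in PA + 3-IAA and 38.0 ± 0.57 CPM in PA + DMSO, and its 95% interval of -0.08 to 0.18 on the log2 scale bounds any difference to a small one. The TPM of LBR over that of TM7SF2 was 0.68, 0.76 and 0.73 in PA + 3-IAA and 0.99, 0.94 and 0.92 in PA + DMSO.

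EBP, which shifts the ring double bond, averaged 19.1 ± 0.79 CPM in PA + 3-IAA and 18.9 ± 0.62 CPM in PA + DMSO, with a 95% interval of -0.15 to 0.19. SC5D, the desaturase of the next step, measured 425, 470.4 and 434 CPM in PA + 3-IAA and 824, 863 and 740.3 CPM in PA + DMSO. The highest PA + 3-IAA library was well below the lowest PA + DMSO library. SC5D fell 1.83-fold (log2 -0.87, SE 0.07, edgeR adjusted p = 6.9e-05). DHCR7, a reductase that finishes the sterol, measured 32.1, 31.7 and 31.9 CPM in PA + 3-IAA and 40.1, 41.0 and 47.6 CPM in PA + DMSO, and fell 1.34-fold (log2 -0.43, SE 0.08, edgeR adjusted p = 0.00139).

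Seen along the route, 9 of the 19 enzymes fell and 1 rose, with a median log2 fold change of 0.0086. The enzymes called were 52.6% of the 19, close to the 51.2% of all genes tested. The falls lay in a run from MVK to IDI1 and, with gaps, from CYP51A1 to DHCR7. Without PA + DMSO replicate 3, 9 of the enzymes fell and 8 rose, which was 89.5% of them, against 60.5% of all genes tested, and those 8 were ACAT2, HMGCS1, FDPS, FDFT1, SQLE, LSS, TM7SF2 and HSD17B7. Summed TPM over the 7 mevalonate and isoprenoid enzymes was 521, 492 and 516 in PA + 3-IAA and 373, 371 and 535 in PA + DMSO, where replicate 3 exceeded every PA + 3-IAA library. Summed TPM over the 12 squalene and sterol enzymes was 843, 843 and 824 in PA + 3-IAA and 1083, 1114 and 1099 in PA + DMSO, with no overlap. These sums weigh abundant genes most, which were ACAT2 and HMGCS1 among the 7 and SC5D and MSMO1 among the 12. SC5D averaged 238 TPM in PA + 3-IAA and 418 in PA + DMSO, and MSMO1 194 and 265. The median log2 fold change of the 12 was 0.014, and 6 were not called.

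**Figure D2:**
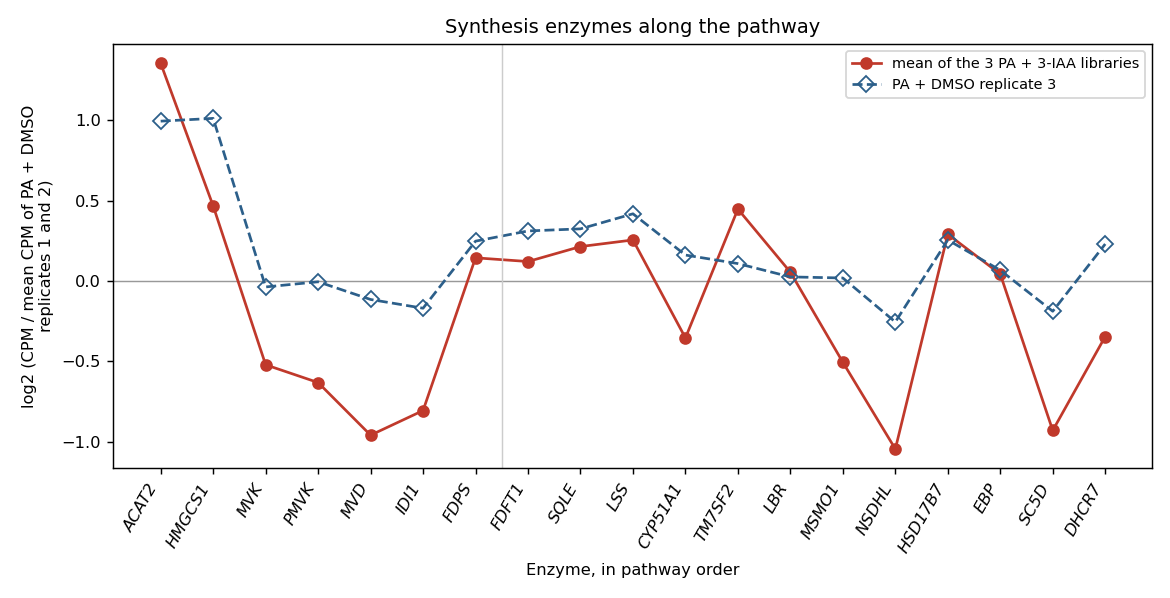
Synthesis enzymes in pathway order (x axis; the grey line parts the mevalonate and isoprenoid steps from the squalene and sterol steps), as log2 of CPM over the mean CPM of PA + DMSO replicates 1 and 2. Red points are the mean of the 3 PA + 3-IAA libraries and open diamonds PA + DMSO replicate 3. Replicate 3 reaches 0.99 for ACAT2 and 1.01 for HMGCS1 and stays between -0.26 and 0.42 for the rest.

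Replicate 3 of PA + DMSO lay on either side of the other libraries, depending on the gene. It was the highest of all 6 libraries for 8 of the 29 sterol genes, or 27.6%, against 8.08% of all tested genes. The 8 were HMGCS1, FDPS, FDFT1, SQLE, LSS, CYP51A1, DHCR7 and INSIG1. It was the lowest of the 6 libraries for 2, SREBF1 and MYLIP (8.12% of all tested genes). For 12 members it lay on the side of PA + 3-IAA but short of those libraries, among them ACAT2, MVD, IDI1, NSDHL, SC5D, STARD4 and NPC1L1, and 48.3% of all tested genes lay so. For CYP51A1, DHCR7, INSIG1 and SREBF1 it lay on the far side from PA + 3-IAA (11.0% of all tested genes). Relative to the mean of replicates 1 and 2, HMGCS1 was higher in replicate 3 by 1.01, ACAT2 by 0.99 and NPC1L1 by 0.67 on the log2 scale. This is 1 library, so these values describe it and carry no test.

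SREBF2 encodes SREBP-2, which drives the synthesis enzymes, and SREBF1 encodes SREBP-1, which in liver mainly drives fatty acid synthesis. SREBF2 measured 80.4, 79.6 and 81.1 CPM in PA + 3-IAA and 69.8, 70.7 and 79.5 CPM in PA + DMSO. The groups did not overlap, though PA + DMSO replicate 3 came within a fraction of a CPM of the lowest PA + 3-IAA library. The log2 fold change of 0.13 (SE 0.06, 95% interval -0.01 to 0.27) did not pass (edgeR adjusted p = 0.111), and without replicate 3 SREBF2 rose 1.14-fold (adjusted p = 0.00122). SREBF1 measured 22.1, 20.9 and 21.3 CPM in PA + 3-IAA and 19.04, 19.3 and 16.3 CPM in PA + DMSO. It rose 1.18-fold (log2 0.24, SE 0.09, edgeR adjusted p = 0.0431), a call that was lost whichever single library was left out (log2 0.16 to 0.28) and by DESeq2 (adjusted p = 0.0969). The TPM of SREBF2 over that of SREBF1 was 3.30 ± 0.14 in PA + 3-IAA and 3.52 ± 0.51 in PA + DMSO (SD, n = 3 each), a difference within the spread of replicates.

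The ER machinery around SREBP fell. SCAP measured 25.6, 23.5 and 24.9 CPM in PA + 3-IAA and 34.2, 35.0 and 30.1 CPM in PA + DMSO, and fell 1.34-fold (log2 -0.42, SE 0.08, edgeR adjusted p = 0.00177). INSIG1, itself an SREBP target that restrains the system, measured 49.2, 48.7 and 49.1 CPM in PA + 3-IAA and 64.1, 72.9 and 74.9 CPM in PA + DMSO. It fell 1.44-fold (log2 -0.53, SE 0.07, edgeR adjusted p = 0.000279). INSIG2, a retention protein whose gene answers less to SREBP, measured 49.3, 53.2 and 51.5 CPM in PA + 3-IAA and 69.8, 67.7 and 61.7 CPM in PA + DMSO, and fell 1.29-fold (log2 -0.37, SE 0.07, edgeR adjusted p = 0.00136). None of the 3 genes overlapped between the groups, and 31% of all tested genes were likewise separate with PA + 3-IAA below. All 3 also fell without PA + DMSO replicate 3. Of the 5 genes of SREBP control 3 were lower and 1 higher, or 80%, with and without that library. The gene called higher was not the same, being SREBF1 with all libraries and SREBF2 without PA + DMSO replicate 3. Among all genes tested 51.2% were called, and 60.5% without that library. The TPM of INSIG1 over that of INSIG2 was 0.78 ± 0.11 in PA + 3-IAA and 0.77 ± 0.10 in PA + DMSO (SD, n = 3 each), a difference smaller than the spread of replicates.

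SCARB1 and NPC1L1, genes of sterol entry, rose. SCARB1, the receptor that takes cholesteryl ester from high-density lipoprotein, measured 62.5, 62.7 and 62.0 CPM in PA + 3-IAA and 42.4, 49.1 and 55.8 CPM in PA + DMSO. It rose 1.27-fold (log2 0.35, SE 0.09, edgeR adjusted p = 0.00998). NPC1L1, a membrane transporter best known for sterol absorption in the gut, measured 76.3, 68.1 and 72.4 CPM in PA + 3-IAA and 35.9, 32.6 and 54.4 CPM in PA + DMSO. It rose 1.76-fold (log2 0.81, SE 0.19, edgeR adjusted p = 0.0126), or 2.10-fold without PA + DMSO replicate 3 (adjusted p = 5.47e-15). For both genes every PA + 3-IAA library was above every PA + DMSO library, as for 31.5% of all tested genes. With no filter on low counts NPC1L1 did not pass (edgeR adjusted p = 0.0595).

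STARD4, a soluble carrier that moves sterol between membranes and to the ER, went the other way. It measured 90.3, 90.1 and 90.9 CPM in PA + 3-IAA and 146, 134 and 118 CPM in PA + DMSO, and fell 1.46-fold (log2 -0.55, SE 0.08, edgeR adjusted p = 0.000412). MYLIP, a ubiquitin ligase that marks lipoprotein receptors for breakdown, was the scarcest tested member, at 3.94 ± 0.30 CPM in PA + 3-IAA and 4.03 ± 0.71 CPM in PA + DMSO (SD, n = 3 each). Its 95% interval of -0.39 to 0.34 on the log2 scale leaves changes of that size undetectable at this depth.

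Esterification for storage is carried out by SOAT1 and SOAT2; SOAT2 is known as the form of liver and gut in other species. SOAT1 measured 85.5, 85.2 and 87.7 CPM in PA + 3-IAA and 95.8, 92.5 and 95.0 CPM in PA + DMSO, with no overlap but a small difference (log2 -0.13, SE 0.05, 95% interval -0.25 to -0.02, edgeR adjusted p = 0.0558). Without PA + DMSO replicate 3 it passed as lower by 1.09-fold (adjusted p = 0.0215). SOAT2 had 2, 6 and 2 counts in PA + 3-IAA and 3, 3 and 3 in PA + DMSO, near the floor of 3 counts, so no fold is given. In TPM the groups of SOAT1 overlapped, with means of 58.7 in PA + 3-IAA and 60.2 in PA + DMSO, and SOAT2 averaged 0.12 in each group.

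**Figure D3:**
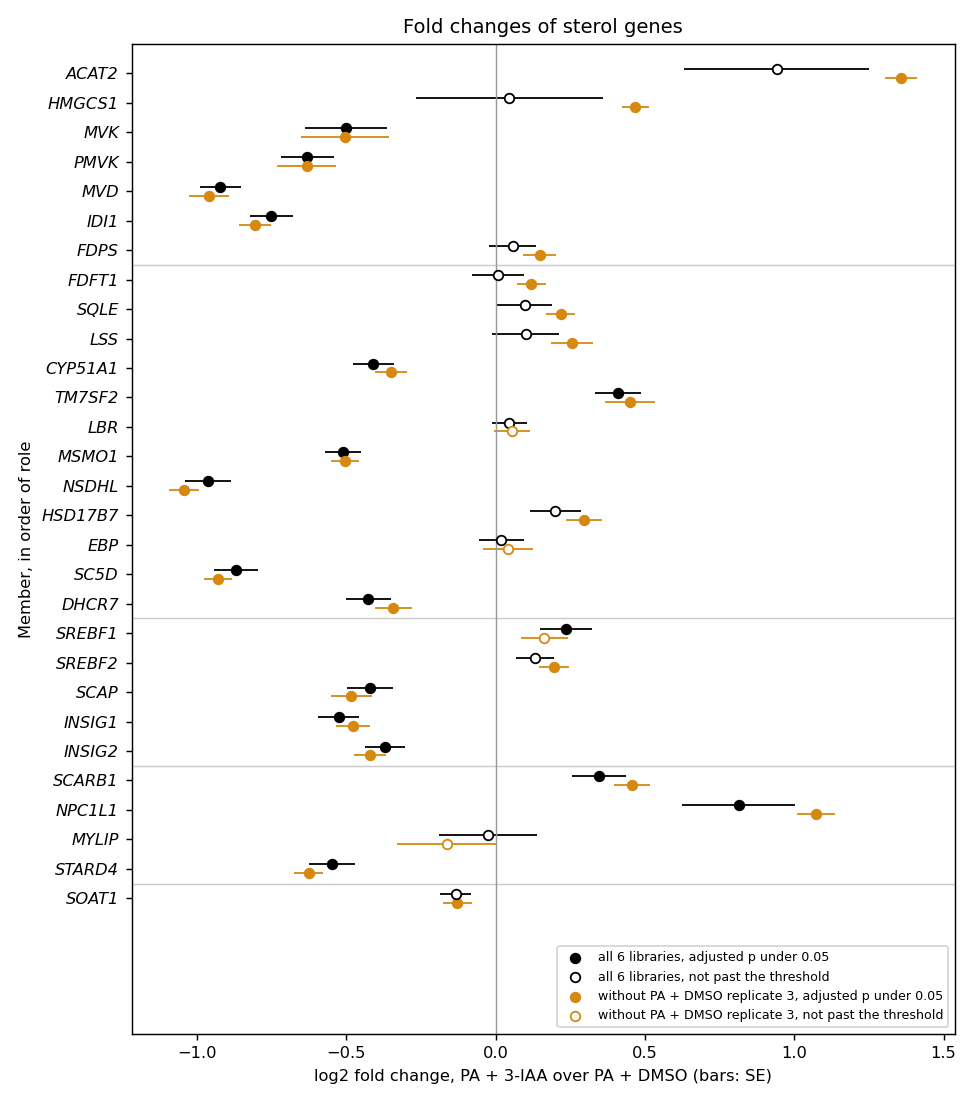
Log2 fold change of PA + 3-IAA over PA + DMSO for each tested sterol gene, with bars of 1 SE, from all 6 libraries (black) and without PA + DMSO replicate 3 (orange); filled points passed the adjusted p of 0.05. The 13 genes called lower with all libraries are filled in both fits, and the number filled above 0 is 4 with all libraries and 11 without replicate 3.

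Levels were compared between genes in TPM, the measure per length. SC5D was the most abundant member in PA + DMSO and had rank 2 in PA + 3-IAA, at 238 ± 3.97 TPM in PA + 3-IAA and 418 ± 30.6 TPM in PA + DMSO (SD, n = 3 each). ACAT2 had rank 1 in PA + 3-IAA and rank 3 in PA + DMSO, at 241 ± 12.3 TPM in PA + 3-IAA and 119.8 ± 51.5 TPM in PA + DMSO. In PA + 3-IAA the levels of ACAT2 and SC5D overlapped, so their order was within the spread. MSMO1 followed at 194 ± 5.34 TPM in PA + 3-IAA and 265 ± 9.61 TPM in PA + DMSO. SREBF1, PMVK, MYLIP and SOAT2 were the least abundant in PA + DMSO.

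**Figure D4:**
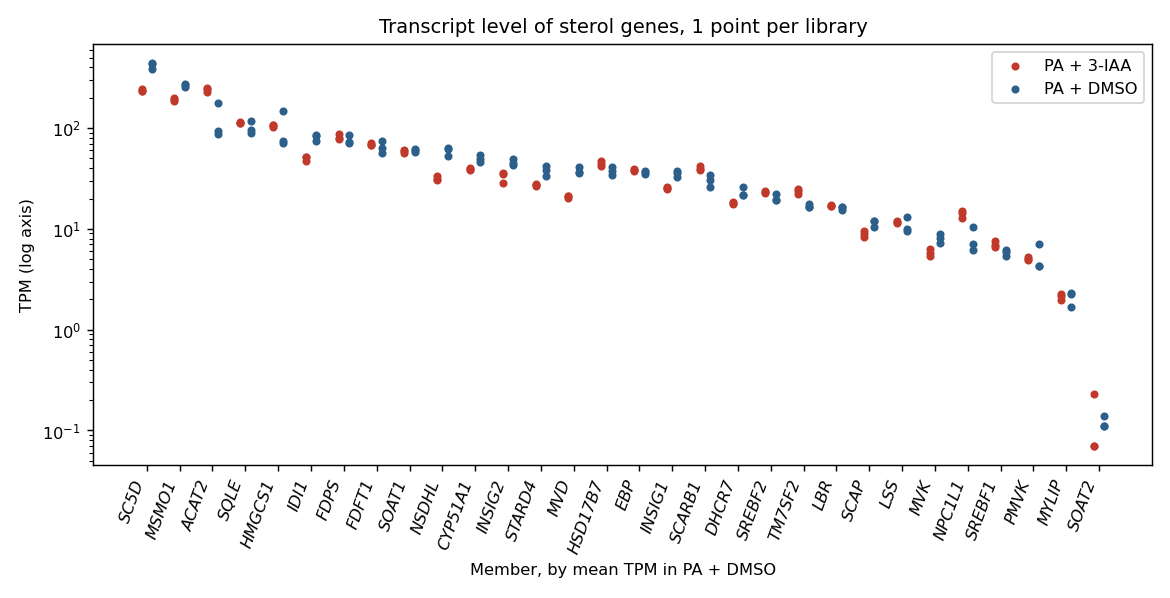
TPM of each of the 30 members on a log axis, 1 point per library, with PA + 3-IAA in red on the left of each pair and PA + DMSO in blue on the right, ordered by mean TPM in PA + DMSO. Levels span from SC5D at 418 TPM in PA + DMSO to SOAT2 at 0.12 TPM, and ACAT2 is where PA + 3-IAA stands highest above PA + DMSO among the abundant genes.

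The authors' deposited table, made with DESeq2, lists 29 of the members. In it 13 were lower and 4 higher at its adjusted p under 0.05, and the 13 lower and 3 of the higher were those called here. The authors' deposited table marks 5 as down and 2 as up, and each mark there goes with a log2 fold change of at least 0.585 in size. ACAT2 is marked up there (adjusted p = 0.0183 in the authors' deposited table), and SREBF1 is not (adjusted p = 0.0884 in the authors' deposited table).

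Related genes from lists beside the members moved in both directions. Over all genes tested the share called was 51.2%, and 60.5% without PA + DMSO replicate 3. Of 12 partners in SREBP cutting and sterol sensing, 5 were higher and 3 lower, 66.7% in all (5 and 4, or 75%, without PA + DMSO replicate 3). The proteases MBTPS1 and MBTPS2, which cut SREBP in the Golgi, rose 1.28-fold and 1.26-fold (edgeR adjusted p = 0.00272 and 0.0071; named after their values were seen). TMEM97, a sterol-responsive ER protein, measured 175, 182 and 182 CPM in PA + 3-IAA and 268, 284 and 249 CPM in PA + DMSO, and fell 1.48-fold (edgeR adjusted p = 0.000143). ERLIN1 and ERLIN2, partner proteins of ER membrane domains, went apart: ERLIN1 fell 1.47-fold (adjusted p = 0.000474 by edgeR) and ERLIN2 rose 1.43-fold (adjusted p = 0.000164 by edgeR).

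Of 12 genes of sterol efflux and of LXR, the nuclear receptor that senses oxysterols, 7 were higher and 3 lower, with the same numbers without PA + DMSO replicate 3 and a median log2 fold change of 0.45. Those called were 83.3% of that list. Among those higher was a scarce transcript of 5 to 25 counts per library. By DESeq2, 6 of the list were higher and 2 lower. The exporter ABCA1 measured 133, 126 and 141 CPM in PA + 3-IAA and 98.0, 89.1 and 78.4 CPM in PA + DMSO, and rose 1.51-fold (edgeR adjusted p = 0.000441). CYP27A1, which makes an oxysterol on the way to bile acids, rose 1.62-fold (edgeR adjusted p = 0.000673). RXRB, a partner receptor, fell 1.48-fold (edgeR adjusted p = 0.00049).

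Of 16 genes of sterol transport inside the cell, 5 were higher and 5 lower, 62.5% in all (6 and 7, or 81.2%, without PA + DMSO replicate 3). NPC2, which hands cholesterol out of lysosomes, rose 1.62-fold (edgeR adjusted p = 0.000262) and GRAMD1C, a sterol carrier at ER contact sites, 1.92-fold (adjusted p = 0.000506). OSBP, which exchanges sterol between ER and Golgi, fell 1.81-fold (edgeR adjusted p = 0.000104). Of 8 lipoprotein receptors and adaptors, 4 were higher and 3 lower, 87.5% in all (4 and 4, or 100%, without that library). VLDLR measured 196, 214 and 203 CPM in PA + 3-IAA and 317, 322 and 302 CPM in PA + DMSO, and fell 1.53-fold (edgeR adjusted p = 8.04e-05), while SORL1, a sorting receptor, rose 1.80-fold (adjusted p = 0.000278). CD36, a scavenger receptor and fatty acid carrier, fell 3.29-fold (edgeR adjusted p = 1.24e-05).

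Of 10 genes that lead isoprenoids away from sterol, 3 were higher and 4 lower, 70% in all, with and without PA + DMSO replicate 3. By DESeq2, 3 of them were higher and 3 lower. NUS1 and DHDDS form the enzyme that makes dolichol chains for protein glycosylation in the ER, and both fell. NUS1 measured 89.3, 94.5 and 100.2 CPM in PA + 3-IAA and 299, 300.3 and 207 CPM in PA + DMSO, a 2.84-fold fall (edgeR adjusted p = 0.000216). DHDDS fell 1.87-fold (edgeR adjusted p = 6.71e-05), whereas COQ2, of ubiquinone synthesis, rose 1.54-fold (adjusted p = 0.000297). Of 15 tested SREBP targets of fatty acid synthesis, 4 were higher and 1 lower (7 and 2 without PA + DMSO replicate 3). That was 33.3% of the list, below the 51.2% of all genes tested, and 60% without that library, close to the 60.5% of all genes tested. Among the genes that did not pass with all libraries was FASN, the fatty acid synthase (log2 -0.027, edgeR adjusted p = 0.763), while the desaturase FADS2 fell 1.43-fold (edgeR adjusted p = 0.0148; both named after their values were seen). ACACA, the carboxylase that makes malonyl-CoA, measured 61.8, 58.6 and 64.2 CPM in PA + 3-IAA and 34.1, 36.8 and 43.4 CPM in PA + DMSO. ACACA rose 1.61-fold (edgeR adjusted p = 0.000265), ACLY, which supplies cytosolic acetyl-CoA to both sterol and fatty acid synthesis, 1.53-fold (0.000316) and the malic enzyme ME1 1.29-fold (0.00109).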

How the data were processed

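RNA was sequenced in 3 PA + 3-IAA and 3 PA + DMSO libraries. Per the submitters' processing notes the tools were cutadapt 1.9, HISAT2 2.2.1, RSEM and DESeq2, with no role stated. Genome build, annotation and strand setting are not stated (not given in the sources used here). Deposited were expected counts and TPM per library, by the authors, and their comparison with a log2 fold change and its error, a Wald score and p-values, of which only its log2 fold changes, marks and adjusted p-values were read, for comparison. Expected counts of HMGCS1, TM7SF2, SC5D and SREBF1 are fractional in all 6 libraries. Those of HSD17B7 are so in 4 libraries, of FDFT1 in 2, and of PMVK, NPC1L1 and STARD4 in 1 each. Among the related genes named, at least ERLIN1, RXRB, NPC2, VLDLR and DHDDS are fractional in all 6 libraries. Reads of these genes were thus shared with other loci, and their levels are less certain.

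Expected counts were rounded and tested over the whole table with edgeR 4.0.16 in R 4.3.3 (genes kept by filterByExpr, TMM factors, quasi-likelihood F test with robust fitting, Benjamini-Hochberg adjusted p under 0.05). CPM uses TMM library sizes, TPM is as deposited, and each SE divides the fitted log2 change by the root of its F statistic. At this depth 3 counts equal 0.128 to 0.188 CPM, which covers counting error only. The alternatives were DESeq2 1.42.0, limma 3.58.1 voom, scaling by RLE or by library total, no low-count filter, a CPM of at least 1 in each library, a replicate block and leaving out each library. Counts per role and related list without PA + DMSO replicate 3 were chosen after seeing the data. Replicate pairs differed beyond sampling noise. The chi-square per degree of freedom was 33.9 and 27.0 for PA + DMSO replicate 3 against replicates 1 and 2. For the other pairs within a group it was 2.87 to 3.83. The scripts were tested on simulated data. The members and lists were chosen with earlier results of these data known. All 30 members are described, and of each related list up to 3 tested genes with the smallest unadjusted p, to which MBTPS1, MBTPS2, FASN and FADS2 were added after their values were seen. Of the list genes, 2 macrophage markers did not match, and THRSP and RGS5 did not pass the filter. Emptied lines of the count table, 2 in number, were not analysed. Promoter motifs were not analysed here.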

Additional observations from a re-analysis of the deposited data

How the results depend on the processing

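Of the 13 sterol genes called lower, all 13 were also lower under each alternative except without PA + 3-IAA replicate 3 or PA + DMSO replicate 2, where MVK dropped out. The number called lower ranged from 12 to 14 over the leave-one-out fits and the number called higher from 3 to 11, the 11 being without PA + DMSO replicate 3. Scaling by library total gave 7 higher, with a median log2 fold change over all genes of 0.075. Those added by that scaling were ACAT2, HSD17B7 and SREBF2. Signs turned only in members that did not pass the threshold with all libraries: over the leave-one-out fits HMGCS1 ranged from -0.13 to 0.47, FDFT1 from -0.067 to 0.12, EBP from -0.014 to 0.041 and MYLIP from -0.16 to 0.065, and MYLIP was 0.046 with scaling by library total. ACAT2 passed by DESeq2, by limma voom, with scaling by library total, with the strict filter and with the replicate block.

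Pairing of the groups by replicate number could not be settled, since no calf or culture is given for any number. Deviations of same-numbered libraries correlated at only 0.02 to 0.03, yet each library correlated best with its own number. With the replicate number as a block, 4 sterol genes were higher and 13 lower, with ACAT2 called (log2 1.02) and SREBF1 not, and 3722 genes were higher and 3767 lower over the whole table. Over all genes, the leave-one-out fits called 2986 to 4918 higher and 3285 to 4726 lower. Depth limits what can be said of MYLIP and SOAT2.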
